A study of Mus musculus with 39 samples.

Results

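The transcripts described here are those whose level in untreated mouse embryos stood out most at the 2-cell stage. They are the 200 genes, of 34797 on the array, with the widest gap between the mean level at the 2-cell stage and the highest mean level at any of the other 7 untreated stages, and they were then followed in embryos exposed to a histone deacetylase inhibitor (HDACi). A level is the log2 processed signal of a probe minus the 75th percentile of its array, so a value of 0 is the signal of a probe brighter than 75% of the probes on that array, and a difference of 1 is a 2-fold difference. Each gene is represented by its brightest probe. Levels of different probes are not comparable, and genes are therefore compared only with themselves across groups. The untreated arrays chose the members, and their values are given as a description, whereas arrays of treated embryos had no part in the choice.

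Embryos came from in vitro fertilization of B6D2F1 oocytes with ICR sperm, and each array was hybridized with RNA from a pool of 100 oocytes or embryos. Pools were taken from GV oocytes, MII oocytes and, without inhibitor, from embryos with 1, 2, 4 or 8 cells, morulae and blastocysts, with 3 arrays for each of these 8 stages. The 2 treatments were 10 µM T247, an inhibitor of HDAC3, and 10 µM MGCD0103, an inhibitor of the class I enzymes HDAC1, HDAC2 and HDAC3. Each was present for 6 h from 4 h post insemination (hpi), after which the zygotes returned to medium without inhibitor. Embryos were collected at 12 hpi (1-cell), 24 hpi (2-cell) and 48 hpi (4-cell), with 3 arrays each for T247 at the 3 stages and for MGCD0103 at the 1-cell and 2-cell stages, which makes 39 arrays in 13 conditions. No 4-cell arrays of MGCD0103 were analysed here. Because each array is a pool, fewer embryos with a transcript and less of it in each embryo cannot be told apart.

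After fertilization the mouse embryo lives on messenger RNA stored in the oocyte until its own genome is switched on, first weakly in the zygote and then broadly at the 2-cell stage, a step named zygotic gene activation. A set of genes is transcribed in this short window and silenced again before the blastocyst forms, among them the Zscan4 cluster of zinc finger genes, the Usp17-like deubiquitinases and several multicopy families with young duplicates. Histone deacetylases remove acetyl groups from histone tails, a modification that marks open, transcribed chromatin, and HDACi therefore raise acetylation.

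Promoter sequences of the members that carry most of the description below were taken from RefSeq (GRCm38.p6), each from 250 bases before to 50 bases after the annotated start. Of the 200 members, 99 matched such a window, among 27025 genes with 1. The first 3 windows are shown because each holds TGATTNAAT, a match to the word searched for the homeobox factor Dux, in capitals. They are Zscan4f at chr7:11397665-11397964, BB287469 at chr12:87816327-87816626 and AF067061 at chr13:120262845-120263144, all on the plus strand.
Zscan4f: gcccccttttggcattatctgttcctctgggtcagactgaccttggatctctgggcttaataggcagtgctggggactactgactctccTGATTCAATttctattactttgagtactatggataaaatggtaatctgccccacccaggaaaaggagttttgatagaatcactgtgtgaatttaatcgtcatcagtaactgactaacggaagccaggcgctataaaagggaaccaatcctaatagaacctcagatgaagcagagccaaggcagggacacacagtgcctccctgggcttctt
BB287469: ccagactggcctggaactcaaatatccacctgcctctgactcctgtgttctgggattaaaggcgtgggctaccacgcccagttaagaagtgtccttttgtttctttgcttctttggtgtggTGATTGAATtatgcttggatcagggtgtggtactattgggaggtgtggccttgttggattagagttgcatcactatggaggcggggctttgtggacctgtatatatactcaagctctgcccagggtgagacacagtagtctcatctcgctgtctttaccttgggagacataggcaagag
AF067061: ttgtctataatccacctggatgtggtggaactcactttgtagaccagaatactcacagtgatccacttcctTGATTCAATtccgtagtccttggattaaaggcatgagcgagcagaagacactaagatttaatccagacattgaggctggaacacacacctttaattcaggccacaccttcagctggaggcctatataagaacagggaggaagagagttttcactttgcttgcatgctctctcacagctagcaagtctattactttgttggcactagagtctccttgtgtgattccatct
The word began 161, 129 and 179 bases before the start in these windows, and at 184 bases in Zscan4c, whose window was 85.1% identical to that of Zscan4f. Zfp352, a zinc finger gene, is shown at chr4:90218570-90218869 (plus strand) because its window repeats GGATTA, the core word of OTX and OBOX type homeobox factors, read here on the other strand as TAATCC in capitals.
Zfp352: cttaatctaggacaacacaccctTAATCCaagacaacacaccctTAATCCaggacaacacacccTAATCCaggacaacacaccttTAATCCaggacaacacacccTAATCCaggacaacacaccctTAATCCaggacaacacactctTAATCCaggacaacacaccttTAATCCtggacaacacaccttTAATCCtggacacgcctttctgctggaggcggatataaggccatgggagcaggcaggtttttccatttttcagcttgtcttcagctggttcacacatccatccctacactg
This word occurred 9 times, from 227 to 56 bases before the start. The last pair, Cypt1 at chrX:16522619-16522918 and Cypt4 at chr9:24624935-24625234 (both plus strand), stands for a family of 7 members on several chromosomes whose windows were 72.2% to 92.1% identical in the pairs compared, with CCAAT boxes in capitals.
Cypt1: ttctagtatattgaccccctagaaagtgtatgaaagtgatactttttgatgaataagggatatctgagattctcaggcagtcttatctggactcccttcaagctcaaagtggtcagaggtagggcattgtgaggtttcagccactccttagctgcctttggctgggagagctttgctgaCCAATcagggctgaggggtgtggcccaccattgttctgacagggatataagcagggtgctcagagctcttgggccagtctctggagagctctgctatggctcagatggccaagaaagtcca
Cypt4: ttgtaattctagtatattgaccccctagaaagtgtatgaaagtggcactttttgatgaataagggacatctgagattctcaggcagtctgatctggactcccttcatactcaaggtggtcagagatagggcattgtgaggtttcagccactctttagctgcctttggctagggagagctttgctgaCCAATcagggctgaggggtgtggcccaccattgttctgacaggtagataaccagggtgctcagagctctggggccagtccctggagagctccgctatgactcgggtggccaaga
Cypt1 and Cypt4 were 89.6% identical over the window, and the CCAAT box lay between 75 and 64 bases before the start in the Cypt windows searched.

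In all, 8 words were searched on both strands of the 99 member windows and of all 27025 windows, and none of the words contains another. TGATTNAAT occurred in 4 of the 99 member windows (4.04%) against 0.740% of all windows. GGATTA occurred in 18 (18.2%) against 7.16%, and CAAGGTCA, the NR5A-type word, in 5.05% against 1.53%. A TATAAA box was present in 23.2% of member windows and in 14.2% of all windows, and CCAAT in 47.5% and 37.9%. The GC box GGGCGG was found in 31.3% against 35.9%. The CRE word TGACGTCA occurred in 1.01% against 1.88%, and the word TGCACAC in 6.06% against 4.19%. The median number of CpG pairs in a window was 6 in members and 7 in all genes. Near-identical paralogs are counted separately in these shares, so the windows are not independent, and a match describes letters and not a bound site.

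Members lay on many chromosomes, with 31 (15.5%) on chromosome 7 against 7.86% of all genes, and 15 (7.5%) on chromosome 12 against 3.94%. Chromosome X held 11 (5.5%), against 4.13% of all genes. Of the 200 members, 138 were matched to a current gene symbol and the others are kept under the names of the array design. Several old names now denote family members, such as BC061212 (Pramel37), A430089I19Rik (Pramel39), Gm13083 (Pramel21), Gm13109 (Pramel16), Usp17l5 (Usp17lc), Dub1a (Usp17lb), Dub3 (Usp17le), Gm12824 (Trabd2b) and Gpr98 (Adgrv1). Probes of 14 members shared a run of 20 or more bases with the probe of another member, in the pairs AF067061 and LOC639910, Cypt7 and Cypt10, Cypt3 and Cypt4, Gm4312 and a transcript known by its Ensembl name, Usp-ps and Usp17l5, Zscan4a and Zscan4c, and Gm4303 and an unnamed probe. The transcripts of such a pair may share signal and cannot be told apart with certainty. Of the 57 further probes to the same genes, 42 (73.7%) were also highest at the 2-cell stage, against 8.52% of the further probes of all genes. The further probes of Cxcl10, Fzd2, Gm6288 and Gpr98 were among those that were not. These shares are a description only, since the probes were read on the untreated arrays that chose the members.

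In untreated embryos the median level of the 200 members was between −6.04 and −5.68 on the GV arrays, −5.69 and −5.50 at MII and −5.16 and −4.65 at the 1-cell stage. It stood at 0.19, 0.93 and 0.77 on the 3 arrays of the 2-cell stage. By the 4-cell stage it was back between −3.34 and −2.77, at the 8-cell stage between −4.25 and −4.09, in morulae between −5.62 and −5.04 and in blastocysts between −5.45 and −5.01. The stage with the next highest mean was the 4-cell stage for 143 members, the 8-cell stage for 13, MII and the blastocyst for 11 each, the 1-cell stage for 10, the morula for 7 and GV for 5. In 180 members all 3 arrays of the 2-cell stage lay above every other untreated array. The widest gaps belonged to the homeobox genes Dbx1 (5.24) and Rax (5.14). Dbx1, whose probe lies at chr7:56887073-56887132 (mm9, minus strand), had levels of 2.85, 3.32 and 3.15 at the 2-cell stage and means of −2.13 at the 4-cell and −2.57 at the MII stage. At the limit of the list, Olfr774, Gm8300 and Gpr179 lay just inside with gaps of 2.52 each, and FJ541088 (2.52), a transcript without a gene name (2.51) and Gm13275 (2.50) lay just outside.

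**Figure D1:**
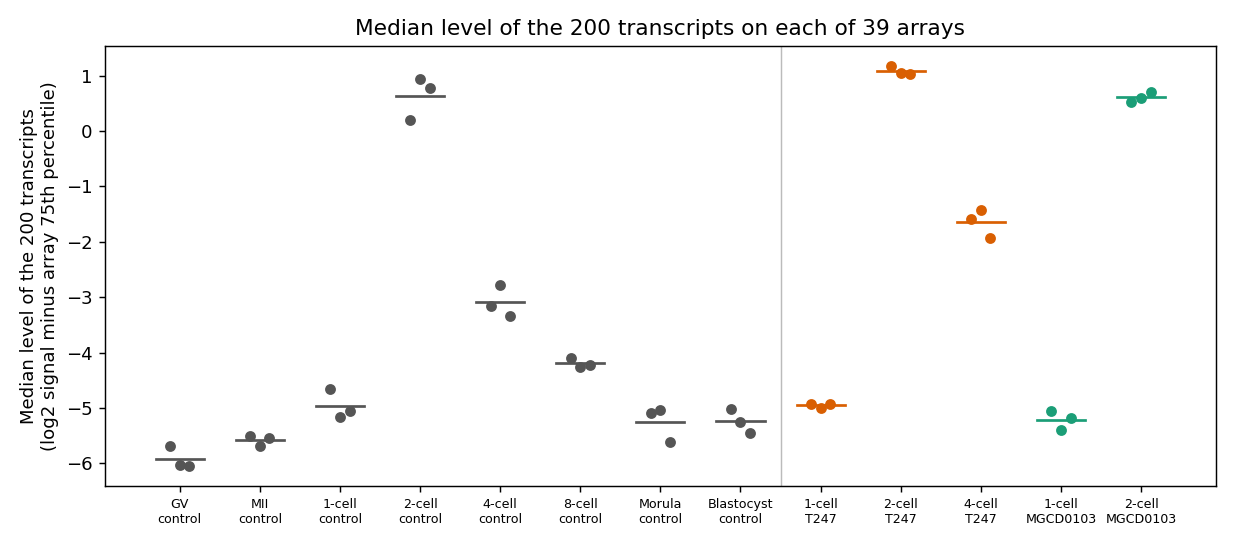
Median level of the 200 members (log2 signal minus the array's 75th percentile, vertical axis) on each of the 39 arrays (points), by stage and treatment. Untreated 2-cell arrays sit at 0.19, 0.93 and 0.77, the 2-cell arrays of both inhibitors between 0.53 and 1.18, and the 4-cell arrays of T247 (−1.93 to −1.42) above those of untreated embryos (−3.34 to −2.77). Untreated arrays chose the members and lay on other slides than treated ones, so contrasts with them are a description only.

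One untreated array stood apart. On 2-cell control replicate 1, 27 of the 200 members were not well above background, against 0 on replicates 2 and 3, and this array had the lowest weight, 0.0574, when arrays were weighted by their fit. Among the 3 control arrays 38 members spanned more than 3 log2 units. Stk33, a kinase gene, stood at −4.57, 2.51 and 2.89, and Shisa9 at −4.44, 1.09 and 0.51, so that replicate 1 was near background where the other two were not. Lists chosen without replicate 1, 2 or 3 shared 142, 170 and 174 genes with the members. Control arrays 1, 2 and 3 lay on slides 1, 2 and 3, the 1-cell and 2-cell arrays of T247 on slide 4 with the first 4-cell array, the other 4-cell T247 arrays on slide 5 and MGCD0103 on slide 6. Treatment against control, and MGCD0103 against T247, therefore cannot be told apart from slide, whereas the 1-cell and 2-cell arrays of each inhibitor shared a slide. Across all arrays 44.4% to 58.3% of spots were well above background and none was saturated. Oocyte markers (8 of 8) and known 2-cell markers (7 of 7) were well above background in every 2-cell group. The same 7 of 7 were so in control 1-cell and 4-cell embryos, so this count does not mark the stage. Among them Zscan4c, Zscan4f, Tcstv3, Zfp352 and Usp17l5 are members, chosen for being high at the 2-cell stage. Of 7 morula and blastocyst markers 6 were well above background in control 2-cell embryos and 7 with each inhibitor. Of 10 granulosa cell markers 1 or 2 were. Of 7 sperm markers (Prm1, Prm2, Tnp1, Tnp2, Odf1, Akap4 and Smcp) 2 were so in control, 4 in T247 and 3 in MGCD0103 2-cell embryos.

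These transcripts rose from the 1-cell to the 2-cell stage under both inhibitors. A gene was called where limma gave a Benjamini-Hochberg adjusted p under 0.05 over all 34797 genes and a log2 fold change (LFC) of at least 1. From the 1-cell to the 2-cell stage under T247, 190 of 200 members (95%) were called higher, against 20.9% of all genes, and 0 were called lower, against 16.2% (unadjusted p under 0.05: 191 higher and 0 lower). The median LFC was 5.49 (quartiles 4.19 and 6.76) against 0.28 over all genes, and all 200 members had a positive LFC. Under MGCD0103, 187 members (93.5%) were called higher, against 20.1% of all genes, and 0 lower, against 12.9% (unadjusted: 187 and 0), with a median LFC of 5.45 (quartiles 3.75 and 6.93) against 0.37 over all genes. The rise was called under both inhibitors for 186 members, under neither for 9, under T247 alone for 4 and under MGCD0103 alone for 1. Over the 173 members well above background on all 3 control 2-cell arrays the counts were 172 for T247 and 169 for MGCD0103, and over the remaining 27 they were 18 and 18.

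**Figure D2:**
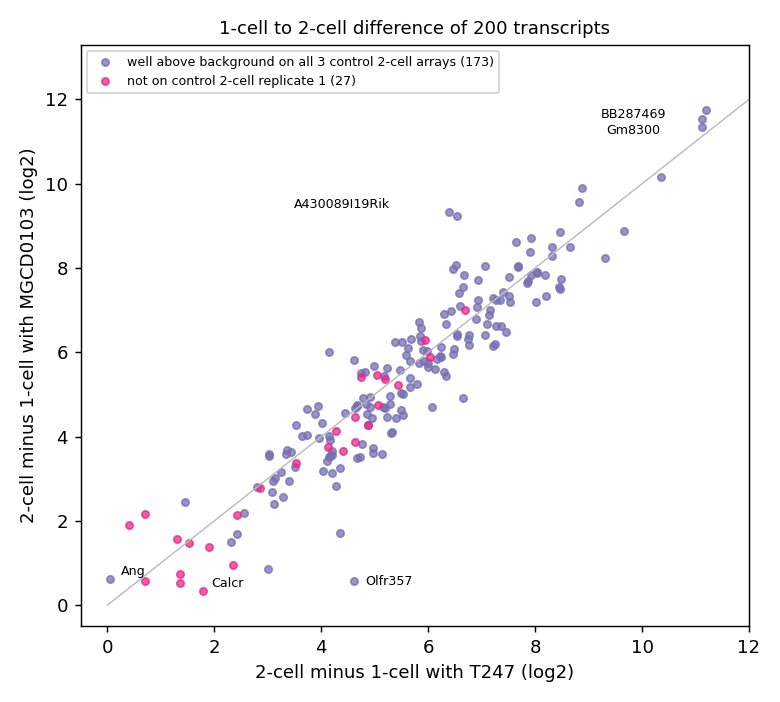
Difference in level between the 2-cell and 1-cell stages under T247 (horizontal axis, log2) and under MGCD0103 (vertical axis, log2), 1 point a member, with the 173 members well above background on all 3 control 2-cell arrays and the other 27 in different colours and a line of equality. All 200 members are positive under T247, and Olfr357 lies far below the line, with 4.61 under T247 and 0.58 under MGCD0103.

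Detection rose with the levels. A spot is well above background where the scanner software's own test says so. All 3 arrays met this for 80 members (40%) at the 1-cell stage of T247 and for 188 (94%) at the 2-cell stage, against 57.4% and 60.3% of all genes. The corresponding numbers were 75 (37.5%) and 179 (89.5%) for MGCD0103, against 56.9% and 59.3% of all genes, and 62 (31%) and 173 (86.5%) for control embryos, against 51.6% and 53.4%. Where a gene was not well above background on any array of the dimmer group, its fold change is given as a lower bound, with the dim arrays raised to the lowest signal that was well above background on each.

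Of the members, 18 belong to lists of known 2-cell genes, and all 18 rose from the 1-cell to the 2-cell stage under each inhibitor, with a median LFC of 6.47 under T247 and 6.83 under MGCD0103. BB287469, a gene close to the translation initiation factor family eIF1A, stood at −2.09, −2.17 and −2.62 on the 1-cell T247 arrays and at 8.88, 8.85 and 8.78 on the 2-cell arrays, a rise of 2240-fold (LFC 11.13, SE 0.23, adjusted p = 1.7e-17). Its MGCD0103 arrays moved from −2.64, −2.82 and −2.98 to 8.50, 8.46 and 8.67, or 2621-fold. Neither pair of stages overlapped. Gm8300, from the same family, rose 2241-fold under T247 and 2976-fold under MGCD0103, the latter with 2 of 3 1-cell arrays well above background.

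Zscan4f encodes a zinc finger protein of the cluster active at the 2-cell stage. It stood at 0.35, 0.51 and 0.51 in 1-cell and 7.53, 7.74 and 7.75 in 2-cell embryos given T247, 149-fold higher (LFC 7.22, SE 0.28, adjusted p = 6.7e-14). With MGCD0103 the levels were 0.23, 0.22 and 0.10 and then 7.55, 7.46 and 7.38, 155-fold higher. The control 2-cell arrays spread more, at 8.36, 6.63 and 6.95, and the 2-cell arrays of both inhibitors fell inside that span. Zscan4c rose 8.14-fold under T247 and 11.7-fold under MGCD0103. All 4 Zscan4 genes on the array were members. Zfp352 rose 50.7-fold under T247, from 0.98, 0.79 and 1.16 to 6.67, 6.67 and 6.58, and 55.1-fold under MGCD0103, from 0.53, 0.67 and 0.65 to 6.32, 6.37 and 6.51. Tcstv3, of a family transcribed in 2-cell embryos, rose 29.4-fold and 19.4-fold.

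The 1-cell arrays of Usp17l5, a deubiquitinase, lay apart between the inhibitors. At the 1-cell stage it stood at −0.61, −0.44 and −0.57 with T247 and at −2.30, −2.72 and −2.51 with MGCD0103, and at the 2-cell stage at 6.02, 5.98 and 5.94 and at 5.52, 5.42 and 5.71. The rise was 91.8-fold under T247 and 268-fold under MGCD0103, and the difference between these rises did not pass the test (LFC 1.55, SE 0.44, adjusted p = 0.090).

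Among all genes measured from the same lists, beyond the members, the rise was less uniform. All 4 Tdpoz genes rose under both inhibitors although none is a member, and 4 of 4 Tcstv genes rose. Of 5 Usp17-like deubiquitinases 4 rose under T247 and 5 under MGCD0103. Of 21 Prame-like genes 11 rose and 5 fell under T247, and 11 rose and 3 fell under MGCD0103. Of 15 regulators of the 2-cell program, a list built around Dux, 7 rose and 4 fell under T247 (median LFC 0.08). Under MGCD0103 6 rose and 2 fell (0.22). The 5 Obox genes had 1 rise and 2 falls under T247 (median LFC −0.73), and 1 and 1 under MGCD0103 (−0.31). Eif1a-like genes (8) had 7 rises and 1 fall, and 6 and 1. Other known 2-cell genes (28) had 20 and 4, and 18 and 4, and 2 of 2 Trim43 genes rose under each. Over all genes 20.9% rose and 16.2% fell under T247, and 20.1% and 12.9% under MGCD0103.

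The groups that follow were put together by name and known role after the values had been seen. Transcription factors of later development made up 18 members, and all 18 rose under each inhibitor, with a median LFC of 5.12 under T247 and 4.98 under MGCD0103. Dbx1, known from neural tube patterning, stood at −3.71, −3.22 and −3.22 on the 1-cell and 2.93, 2.84 and 2.81 on the 2-cell T247 arrays, 75.5-fold higher (LFC 6.24, SE 0.21, adjusted p = 9.1e-15). Under MGCD0103 it rose 58.9-fold, to 2.25, 2.26 and 2.44. Rax, the homeobox gene of the early eye field, was not well above background on any 1-cell array and reached 1.77, 1.74 and 1.98 with T247, at least 82.8-fold higher, and between 1.05 and 1.34 with MGCD0103, at least 55.6-fold higher.

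Sp5, a zinc finger factor of the Wnt response, moved from −1.97, −2.55 and −2.59 to 3.59, 3.48 and 3.41 under T247, 58.3-fold higher, and to 3.29, 3.44 and 3.56 under MGCD0103, 95.5-fold higher. These 6 arrays all lay above the control 2-cell arrays of 0.24, 0.78 and 1.06. Gfi1, a transcriptional repressor in blood cell development, rose 44.8-fold under T247, with 2 of 3 1-cell arrays well above background, and 32.7-fold under MGCD0103. Neurog2, a factor that starts neuronal differentiation, rose at least 26.4-fold and at least 14.5-fold.

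The 7 members of the Cypt family, which encodes cysteine-rich perinuclear theca proteins of the sperm head, moved alike. All 7 rose under both inhibitors, with median LFCs of 6.60 and 7.09. Cypt3 stood at −4.40, −4.05 and −4.03 in 1-cell and 2.23, 2.15 and 2.15 in 2-cell embryos given T247, 80.8-fold higher (LFC 6.34, SE 0.32, adjusted p = 2.4e-12), with 2 of the 3 1-cell arrays well above background. With MGCD0103 it went from −4.40, −5.69 and −4.93 to 1.61, 1.43 and 1.94, at least 74.6-fold higher. The control 2-cell arrays were at 0.54, −0.69 and −0.63, below all 6 treated arrays. Cypt1 rose at least 65.1-fold and at least 81.2-fold, and Cypt10 at least 61.6-fold and at least 55.8-fold. The log2 summed level of the 7 sperm markers lay between 1.85 and 2.50 on the control, 1.49 and 1.86 on the T247 and 2.41 and 2.54 on the MGCD0103 2-cell arrays, with 4, 3 and 3 of them well above background on no array, and their part in the Cypt values was not tested. Probe sharing between Cypt3 and Cypt4, and between Cypt7 and Cypt10, makes these fewer than 7 separate measurements.

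The 4 Prame-like members, from a family of leucine-rich repeat proteins, all rose, with median LFCs of 6.47 under T247 and 8.93 under MGCD0103. A430089I19Rik stood at 0.38, 0.39 and 0.42 and then 6.83, 6.82 and 6.71 with T247, and at −2.31, −2.51 and −3.20 and then 6.69, 6.52 and 6.76 with MGCD0103. The rise was thus 83.5-fold under T247 and 645-fold under MGCD0103, with 2-cell arrays of both inhibitors close together and 1-cell arrays far apart. BC061212, whose promoter window was 98.0% identical to that of A430089I19Rik, rose 93.5-fold and 601-fold, the latter with 2 of 3 1-cell arrays well above background. Gm13083 rose 26.6-fold and 11.5-fold.

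A group of secreted signals and receptors held 16 members, of which 14 rose under each inhibitor, with median LFCs of 6.05 and 5.42. It was not a full list of receptors and left out Olfr357 and Gpr98, among others described below. Insl6, a relaxin-like peptide, went from −4.61, −5.83 and −5.01 to 3.45, 3.32 and 3.26 under T247, at least 236-fold higher, and rose under MGCD0103 (LFC 7.73), where 1 of the 3 1-cell arrays was well above background. Ifng, which encodes interferon gamma, rose at least 137-fold and at least 126-fold, to 2.61, 2.53 and 2.52 with T247 and 2.21, 2.33 and 2.49 with MGCD0103. Cxcl10, an interferon-responsive chemokine, rose at least 40.9-fold and at least 40.0-fold. The 2 exceptions were receptors. Calcr, the calcitonin receptor, had an LFC of 1.79 under T247 (SE 1.11, adjusted p = 0.19) and 0.33 under MGCD0103 (SE 1.11, adjusted p = 0.81). Gpr83 had an LFC of 1.31 (SE 0.86, adjusted p = 0.21) and 1.57 (SE 0.86, adjusted p = 0.14), with no array of either stage well above background.

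**Figure D3:**
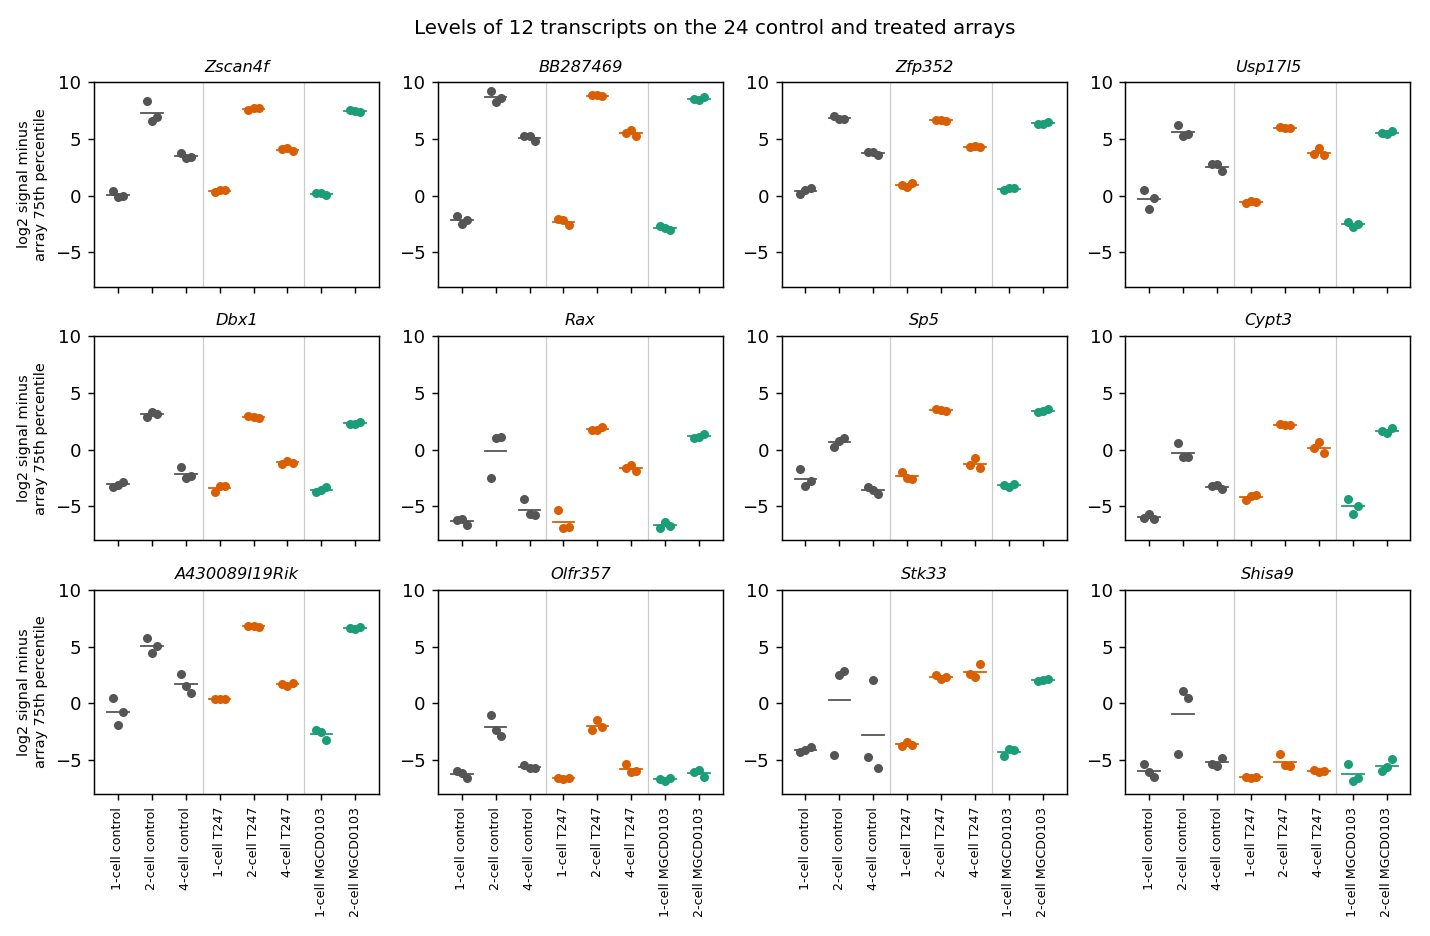
Levels (log2 signal minus the array's 75th percentile, vertical axis) of 12 members on the 24 arrays of 8 conditions at 3 stages (horizontal axis), 1 panel a gene and 1 point an array, coloured by treatment. Most panels are highest at the 2-cell stage within each treatment, where MGCD0103 has 1-cell and 2-cell arrays only. At the 2-cell stage Olfr357 stays at the bottom with MGCD0103 (−6.45 to −5.86), and Shisa9 is near 0.51 to 1.09 on 2 control arrays alone.

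The members without a called rise were mostly those that had rested on 2 of the 3 control arrays. Neither inhibitor gave a called rise for Shisa9, Calcr, Mup3, Gltpd2, Gm5914, Ang, Gpr83, Gm6288 and 1 unnamed probe, and 8 of these 9, all but Ang, were not well above background on control replicate 1. Shisa9 stood at −4.49, −5.43 and −5.52 with T247 and −5.99, −5.62 and −4.88 with MGCD0103 at the 2-cell stage. Ang, which encodes the ribonuclease angiogenin, stood at −3.05, 1.30 and 0.83 on the control 2-cell arrays and at −3.58, −3.02 and −2.54 with T247 and −2.66, −2.71 and −2.36 with MGCD0103, so that all 6 treated arrays were near control replicate 1. Its LFC from the 1-cell stage was 0.06 (SE 0.72, adjusted p = 0.95) under T247 and 0.62 (SE 0.72, adjusted p = 0.48) under MGCD0103. The part of control replicate 1 in the choice of these members was not tested further.

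The second side of the peak could be measured for T247, on the same 2-cell arrays as the rise. Between the 2-cell and the 4-cell stage 160 of 200 members (80%) were called higher at the 2-cell stage, against 22.2% of all genes, and 0 were called higher at the 4-cell stage, against 22.9% (unadjusted: 168 and 1). The median LFC of 2-cell over 4-cell was 2.61 (quartiles 1.65 and 3.52) against −0.16 over all genes, and 192 members had a positive value. A peak with both sides called was found for 160 members, against 5.22% of all genes. On the slide that held the 1-cell, 2-cell and 1 of the 4-cell T247 arrays, the 4-cell array taken alone gave 74% and a median LFC of 2.54, with that lone array assumed to vary like the other groups. Among the 173 members well above background on all control 2-cell arrays the drop was called for 148, and among the other 27 for 12.

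**Figure D4:**
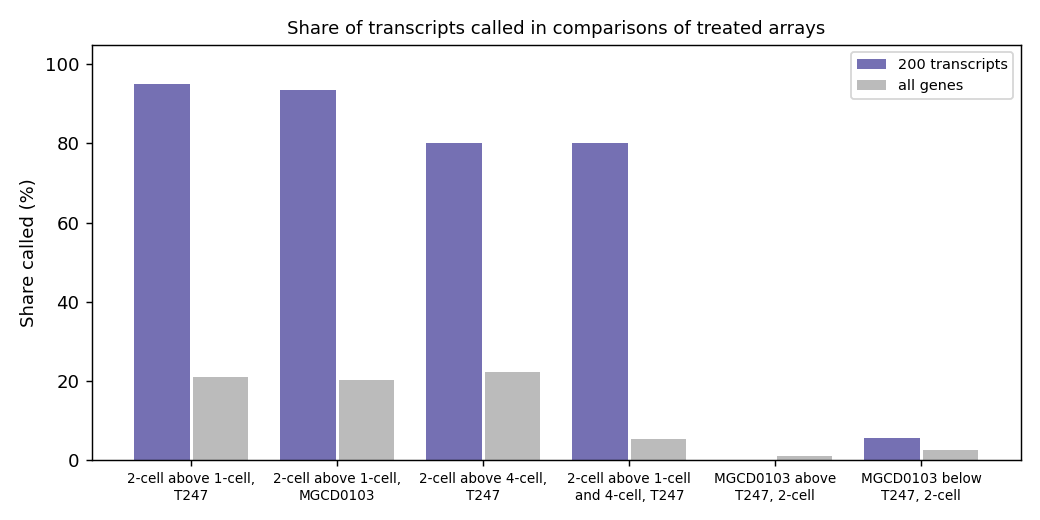
Share of the 200 members and of all 34797 genes (bars, percent, axis from 0) called in 6 comparisons among treated arrays. Members reach 95%, 93.5% and 80% in the stage comparisons, where all genes lie between 20.1% and 22.2%.

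Of the 18 known 2-cell genes 17 fell from the 2-cell to the 4-cell stage under T247, with a median LFC of 2-cell over 4-cell of 2.56. Zscan4f fell to 4.14, 4.17 and 3.93, 12.1-fold lower (LFC 3.60, SE 0.28, adjusted p = 1.0e-09), and BB287469 to 5.52, 5.83 and 5.26, 9.85-fold lower. Zfp352 fell to 4.26, 4.38 and 4.30, 5.02-fold lower, and Usp17l5 to 3.70, 4.18 and 3.56, 4.49-fold lower. The exception was the deubiquitinase Dub1a, at 4.04, 3.73 and 3.74 in 2-cell and 3.20, 3.82 and 2.77 in 4-cell embryos (LFC 0.58, SE 0.32, adjusted p = 0.14), whose arrays overlapped.

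All 7 Cypt genes fell (median LFC 2.70), Cypt3 by 4.06-fold to 0.12, 0.63 and −0.28 and Cypt1 by an LFC of 4.25. The 4 Prame-like members fell with a median LFC of 3.94, A430089I19Rik by 34.3-fold and BC061212 by 38.3-fold. Of the 18 transcription factors 13 fell (median LFC 3.11). Sp5 was 26.5-fold lower at the 4-cell stage, Dbx1 15.9-fold and Gfi1 9.47-fold, Rax fell by an LFC of 3.46, and Sp9 fell at least 21.3-fold to a level not well above background. Of the 16 secreted signals and receptors 10 fell (median LFC 2.33), Insl6 by 22.0-fold and Cxcl10 by 4.52-fold.

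For 40 members the drop under T247 was not called, and 8 of these had a 4-cell mean at or above the 2-cell mean. Fzd2, a Wnt receptor, stood at 1.26, 0.93 and 1.01 in 2-cell and 1.86, 2.44 and 1.22 in 4-cell embryos given T247 (LFC of 2-cell over 4-cell −0.77, adjusted p = 0.26). Its control 4-cell arrays read −0.75, −1.33 and −1.40. Control 4-cell arrays had a part in the choice of the members and lay on other slides, so their values are a description only. Gpr98, the large adhesion receptor of the inner ear, stood at −0.11, −0.55 and −0.39 and then 2.42, 2.80 and 1.30 (LFC −2.52, adjusted p = 0.069), with control 4-cell arrays of −5.57, 0.44 and 0.71. In untreated embryos the further probe of Fzd2 (gap −0.39) and those of Gpr98 (−0.10 and −0.60) were not highest at the 2-cell stage.

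Neurog2 stood at 0.37, 0.20 and −0.03 in 2-cell and 0.46, 0.95 and −0.09 in 4-cell embryos given T247, which overlap (LFC −0.26, adjusted p = 0.77). Its control 4-cell arrays, again given as a description only, read −2.17, −2.72 and −2.46. Ifng stood at 1.73, 2.09 and 2.30 at the 4-cell stage (LFC 0.52, adjusted p = 0.36). Pllp, a membrane protein of myelin, stood at −0.14, 0.15 and 0.21 and then −0.26, −0.04 and −0.53 (LFC 0.35, adjusted p = 0.54). Stk33 stood at 2.52, 2.18 and 2.29 and then 2.55, 2.35 and 3.50 (LFC −0.48, adjusted p = 0.83). The other members with a 4-cell mean at or above the 2-cell mean were Gm1568, Ppp1r3g, 2610020C07Rik and Gm5914, with LFCs of −0.61, −0.42, −0.26 and −0.20.

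Between the inhibitors at the 2-cell stage, 0 members were called higher with MGCD0103, against 0.989% of all genes, and 11 were called lower, against 2.43% (limma, unadjusted p under 0.05: 2 higher and 40 lower). The median LFC of MGCD0103 over T247 was −0.36 against 0.05 over all genes, and 169 members had a negative and 31 a positive value. The clearest was Olfr357, an olfactory receptor gene whose probe lies at chr2:36853199-36853258 (mm9, plus strand). Its 2-cell arrays read −2.36, −1.49 and −2.12 with T247 with a control mean of −2.07, and −6.02, −5.86 and −6.45 with MGCD0103, where none was well above background, at least 4.12-fold lower than T247 (LFC −4.12, SE 0.34, adjusted p = 5.8e-06). Mill2, an MHC class I-like gene, was at least 1.22-fold lower, at −6.14, −5.98 and −5.77 with MGCD0103 and −3.53, −4.00 and −3.70 with T247 (adjusted p = 0.0062).

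Among the brighter members Gm4850 stood at 4.63, 4.63 and 4.90 with MGCD0103 and 5.84, 5.80 and 5.71 with T247, 2.08-fold lower (LFC −1.06, SE 0.16, adjusted p = 0.00063). Gm12824 stood at 0.97, 1.39 and 1.69 against 2.59, 2.44 and 2.48, 2.23-fold lower (adjusted p = 0.0012). Gm13083, the Prame-like gene, stood at 3.40, 3.49 and 3.66 against 4.85, 4.64 and 4.65, 2.29-fold lower (adjusted p = 0.0022). In each of these the arrays of the inhibitors did not overlap. Pllp was 2.61-fold lower (adjusted p = 0.043). Of the transcription factors, Ascl4 was 2.21-fold lower (adjusted p = 0.015, 2 of 3 MGCD0103 arrays well above background) and Sp9 2.18-fold lower (adjusted p = 0.040), and the other 3 called members were unnamed probes. The call of Pllp was lost in 13 of 24 fits without 1 array and that of Gm12824 without MGCD0103 replicate 1, and 7 members were called without 2-cell MGCD0103 replicate 1 or 2.

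None of the 18 known 2-cell genes was called between inhibitors (limma, unadjusted p under 0.05: 0 higher and 5 lower, median LFC −0.39), and none of the 7 Cypt genes was (unadjusted: 0 and 0, median LFC −0.09). None of the 16 members grouped as secreted signals and receptors was called (unadjusted: 0 higher and 2 lower). That group leaves out the receptor gene Olfr357, which was called lower. The LFC was −0.29 (SE 0.23) for BB287469, −0.24 (SE 0.14) for Zfp352 and −0.43 (SE 0.31) for Usp17l5, and a p that misses the threshold does not show equal levels.

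The change from the 1-cell to the 2-cell stage was then compared between inhibitors in an interaction term. MGCD0103 gave the greater rise for 1 member, against 0.227% of all genes, and the smaller for 2, against 0.739% (limma, unadjusted p under 0.05: 8 and 19). The median difference of the rises was −0.15 against 0.13 over all genes. The rise of Olfr357 was at least 5.87-fold under T247, from −6.55, −6.68 and −6.59, and was not called under MGCD0103 (LFC 0.58), from −6.68, −6.81 and −6.58, a fitted difference of −4.03 (SE 0.48, adjusted p = 0.0010). Olfr357 was well above background in the 2-cell T247 embryos alone of these 4 groups, so the size rests on readings near background: it was −1.96, still called, with dim values raised to the lowest signal well above background, and −0.997, not called, with normexp background correction. A430089I19Rik rose more under MGCD0103, by 2.95 (SE 0.65, adjusted p = 0.027), and Gm4850 less, by −1.04 (SE 0.23, adjusted p = 0.029), from −1.48, −1.50 and −1.45 with MGCD0103 and −1.34, −1.55 and −1.50 with T247. For A430089I19Rik the arrays of the inhibitors lay apart at the 1-cell stage, and for Olfr357 and Gm4850 at the 2-cell stage. The calls for A430089I19Rik and Gm4850 were each lost in 10 of 24 fits that left out 1 array, and the number of members called was 18 without 2-cell control replicate 1, which sets only the shared estimate of the spread here, and 1 without 1-cell T247 replicate 2.

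Comparisons with control embryos share their control arrays with the choice of the members and, at the 1-cell and 2-cell stages, with each other, so the counts below are given as descriptions from which nothing is read. At the 1-cell stage T247 arrays were called higher for 8 members, against 5.1% of all genes, and lower for 2, against 1.22%, with a median LFC of −0.22 against −0.18 over all genes. For MGCD0103 the counts were 2 higher, against 2.54%, and 12 lower, against 1.18%, with a median of −0.46 against −0.16. Both ways together, the 10 members called with T247 were 16 without 1-cell or 2-cell control replicate 1, and the 14 called with MGCD0103 were 9 without 1-cell MGCD0103 replicate 2 or 3. Tmem92, a gene of the 2-cell lists, stood at −0.61, 0.02 and 0.06 in control, 1.99, 1.83 and 2.16 in T247 and 1.20, 1.26 and 1.22 in MGCD0103 1-cell embryos, 4.50-fold and 2.65-fold above control. Sp9 was at least 2.38-fold and at least 1.80-fold above control. With MGCD0103, Usp17l5 was 4.64-fold, Gm4312 4.14-fold and A430089I19Rik 3.83-fold lower than in control 1-cell embryos, whose arrays for Usp17l5 read 0.50, −1.16 and −0.24 and for A430089I19Rik 0.46, −1.89 and −0.79. The call of A430089I19Rik was lost without control replicate 1 or MGCD0103 replicate 3.

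At the 2-cell stage, T247 arrays were called higher than control for 40 members, against 11.6% of all genes, and lower for 20, against 7.51%, with a median LFC of 0.21 against −0.04 over all genes. MGCD0103 arrays were called higher for 27, against 13% of all genes, and lower for 35, against 10.1%, with a median of −0.16 against 0.06. Without control replicate 1 the members called lower were 45 for T247 and 56 for MGCD0103, and those called higher for MGCD0103 were 41. Without control replicate 2 those called lower for T247 were 10, and without replicate 3 they were 12. When the list was chosen from 2 control replicates, the treated arrays were also set against the replicate left out (1, 2 or 3). The median of T247 minus that replicate was 0.52, 0.63 and 0.49, and that of MGCD0103 0.24, 0.22 and 0.02. Against the 2 replicates that chose, the medians were −0.83, 0.28 and 0.25 for T247 and −1.13, −0.09 and −0.05 for MGCD0103. Replicate 1, when left out, lay a median of 1.98 below the other 2, with 133 of 200 genes well above background. The sign thus depends on the control replicates used.

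The members with the widest called differences at this stage included Agr2, a protein disulfide isomerase, at −1.87, −2.32 and −2.93 in control, 0.47, 0.51 and 0.05 in T247 and 1.26, 1.02 and 1.27 in MGCD0103 2-cell embryos, 6.58-fold and 11.8-fold above control. Insl6 was 7.99-fold above control with T247, whose arrays are given above, against control arrays of −0.65, 0.96 and 0.72. Sp5 was 6.98-fold above control with T247 and 6.67-fold with MGCD0103. All 7 Cypt genes were called higher with T247 (median LFC 1.90) and 6 with MGCD0103 (median 1.76), and Cypt1 was 6.74-fold above control with MGCD0103. Shisa9 was at least 8.73-fold lower with T247 and at least 8.49-fold lower with MGCD0103, and Mill2 8.31-fold (2 of 3 T247 arrays well above background) and at least 10.2-fold lower. Crabp1, a retinoic acid binding protein, was 2.82-fold lower with T247, a call lost without control replicate 2 or 3. Of the 18 known 2-cell genes 0 were called with T247 (limma, unadjusted p under 0.05: 6 higher and 1 lower), and 2, Rfpl4b and Dub1a, were called lower with MGCD0103.

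At the 4-cell stage, T247 arrays were called higher than control for 74 members, against 8.76% of all genes, and lower for 2, against 5.9%, with a median LFC of 0.83 against −0.23 over all genes. With normexp background correction 29 members were called higher. Of the 200 members, 90 (45%) were well above background on all control 4-cell arrays and 139 (69.5%) on all T247 arrays, where the shares of all genes were 49.5% and 55.3%. On none of the control arrays were 84 members well above background, and 28 of these were so on all 3 T247 arrays. Pllp, at −4.15, −4.02 and −4.66 in control and −0.26, −0.04 and −0.53 in T247 embryos, was at least 8.65-fold higher, and Cypt10, at −5.54, −4.50 and −5.79 and then −1.42, −0.67 and −1.78, at least 4.28-fold. Fzd2 was 8.01-fold, Neurog2 7.40-fold, Ifng 4.14-fold and Rax at least 3.38-fold higher.

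**Figure D5:**
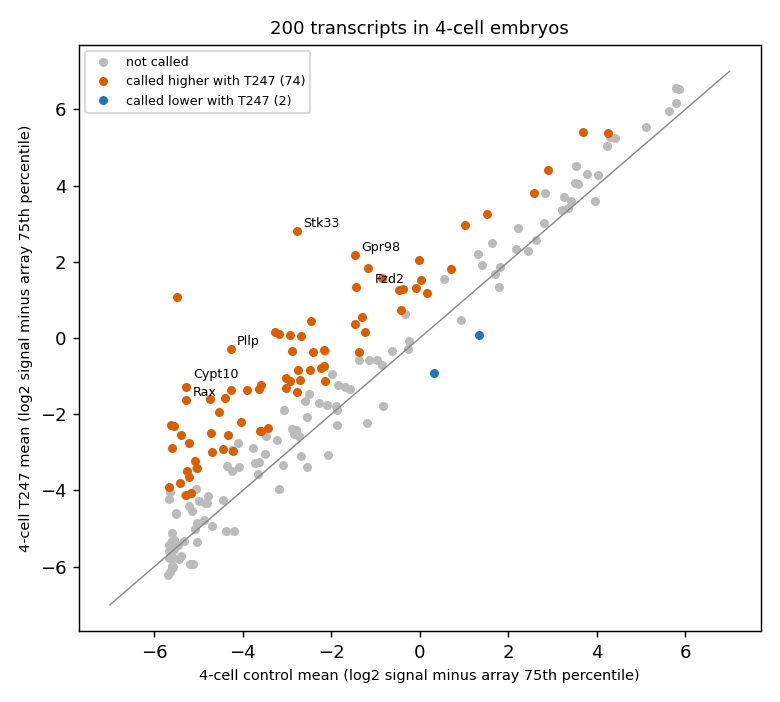
Mean level of each of the 200 members in control (horizontal axis) and T247 (vertical axis) 4-cell embryos (log2 signal minus the array's 75th percentile), with the line of equality. The 74 members called higher with T247 lie above the line and the 2 called lower below it.

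Stk33 was called higher in T247 4-cell embryos (LFC 5.58, SE 1.62), but its control arrays read −4.75, 2.11 and −5.68, of which 1 was well above background, and the call was lost without control replicate 1 (LFC 4.59) or replicate 3 (LFC 4.13). Cypt3 had an LFC of 3.42, with 1 of 3 control arrays well above background, and 6 of the 7 Cypt genes were called. Of the 18 transcription factors 8 were called higher, of the 16 secreted signals and receptors 7 and of the 18 known 2-cell genes 6, among them Dub1a (3.33-fold), Zscan4c (3.17-fold), Usp17l5 (2.35-fold) and Gm8300 (2.20-fold). Gm7963 was 2.34-fold lower, at 1.21, 0.16 and −0.43 in control and −0.67, −0.92 and −1.15 with T247. The arrays of Gm7963 did not overlap, and the call was lost without control replicate 1 or without T247 replicate 2 or 3.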

How the data were processed

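The intensity values used here are the processed signals of 1-colour Agilent mouse arrays as deposited by the authors, 59305 spots for 55681 probes, already background-subtracted by Feature Extraction (version 9.5.1.1 per the labels, 10.7.1.1 per the file headers). The authors also deposited normalized log2 values for 19143 probes (41 members), used here only as an alternative. From the processed signals, log2 values were taken, each array's 75th percentile was subtracted over non-control spots, spots of a probe were averaged and the probe with the highest mean over untreated stages stood for its gene. No filter on dim probes was applied. The 24 arrays of 8 conditions (control and T247 at the 1-, 2- and 4-cell stages, MGCD0103 at the 1- and 2-cell stages) entered a single fit of condition means in limma 3.58.1 (R 4.3.3, statmod 1.5.0, data.table package 1.17.8). Tests were moderated, with Benjamini-Hochberg adjustment over 34797 genes. All p-values are two-sided and rest on 1 moderated spread per gene between pools of the same condition, shared over the 8 conditions. Control pools of a condition lay on different slides, and most treated pools of a condition on the same slide. With the median total of 18.5 degrees of freedom, the fit, tested on data simulated from these arrays for the 4 comparisons of treated arrays, recovered 62.5% to 66% of 200 genes set to differ by 1.5 log2 units and 91% to 96.5% of those set to differ by 3. The number of arrays limits the precision. The members, gene lists and groups were chosen with earlier results of these data known. Genes named are the widest gaps, members on the 2-cell lists, the widest called differences of each comparison and the genes at the limit, with others chosen after their values were seen. Replicate numbers were not used as pairs, since 2 of 27 correlations of same-numbered arrays in the groups compared, and 2 of 9 between control stages, were above 0.1. Alternatives to scaling, background, filter, block, weights and choice of members were run, as was each array left out. Figures were drawn with matplotlib 3.10.9.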

Additional observations from a re-analysis of the deposited data

Results flagged for a closer look

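For 3 members the change from the 1-cell to the 2-cell stage differed between the inhibitors by the interaction test (limma). The rise was greater under MGCD0103 for 1 (0.5%, against 0.227% of all genes) and smaller for 2 (1%, against 0.739%). The rise of Olfr357 was smaller under MGCD0103 by −4.03 on the log2 scale, a size that rests on readings near background, since only the 2-cell T247 arrays were well above it. The difference was −1.96 with dim values raised to the lowest signal well above background and −0.997, not called, with normexp background correction. A430089I19Rik rose more under MGCD0103, by 2.95, with 1-cell arrays at −2.31, −2.51 and −3.20 against 0.38, 0.39 and 0.42 with T247. Gm4850 rose less under MGCD0103, by −1.04, with 2-cell arrays at 4.63, 4.63 and 4.90 against 5.84, 5.80 and 5.71. The calls for A430089I19Rik and Gm4850 were each lost in 10 of 24 fits that left out 1 array. Each inhibitor had its own slide, which cannot be told apart from the inhibitor here.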

How the results depend on the processing

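The rises and the drop kept their direction and most of their size in every alternative run. Without 1 array at a time the members called higher stayed at 94.5% to 97.5% for the rise under T247, 93% to 95% for the rise under MGCD0103 and 74.5% to 82% for the drop under T247. Of the summaries that answer a comparison, 607 values stayed within 1.5 times the reported share and 67 moved further, and of single-gene values 4155 kept their direction and side of the threshold, 76 fell short of it, 1 newly passed it and 1 turned. All values that follow are percentages of members called, where "between inhibitors" is the comparison at the 2-cell stage (5.5% reported, either way) and "interaction" the comparison of the rises (1.5% reported, either way).

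Quantile normalization gave 10 between inhibitors, 5 for the interaction and 2 lower with T247 at the 4-cell stage (1 reported). It also called the drop of Dub1a (LFC 1.29). Array median scaling gave 17 lower with T247 and 7.5 higher and 26.5 lower with MGCD0103 at the 2-cell stage (10, 13.5 and 17.5 reported), 3 lower with T247 at the 4-cell stage and 2.5 for the interaction. Smooth quantile normalization with the study's detection filter, over 134 members, gave 9.70 with T247 and 11.2 with MGCD0103 at the 1-cell stage, either way (5 and 7 reported), and 3.73 for the interaction, and the filter alone 8.96 with T247 at the 1-cell stage and 3.73 for the interaction. Normexp background correction gave 14.5 higher (37 reported) and 0.5 lower with T247 at the 4-cell stage, 0.5 with T247 and 3 with MGCD0103 at the 1-cell stage and 3.5 between inhibitors. The authors' normalized table, with 41 members, gave 9.76 higher and 2.44 lower with T247 at the 2-cell stage, 4.88 lower with T247 at the 4-cell stage, 2.44 between inhibitors and 2.44 for the interaction, and there the median LFC of MGCD0103 at the 1-cell stage was 0.089 in place of −0.46. The cause was not tested.

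Genes well above background in at least 1 condition gave 3.68 for the interaction. Raising dim values to the lowest signal well above background gave 3.5 for the interaction and turned Cypt3 with T247 at the 1-cell stage from 1.78 to −0.13, since by construction it removes differences below that signal. All 39 arrays in the fit gave 3.5 between inhibitors, and slide as a random block 3.5 between inhibitors and 4 for the interaction. Array weights gave 21.5 lower with T247 and 29 lower with MGCD0103 at the 2-cell stage, 9.5 with T247 at the 1-cell stage, 10.5 between inhibitors and 12 for the interaction. A variance trend gave 3 for the interaction. Members chosen without 2-cell control replicate 1 gave 20 lower with T247 and 28.5 lower with MGCD0103 at the 2-cell stage and 4 with MGCD0103 at the 1-cell stage, and the 100 widest gaps gave 2 lower with T247 at the 4-cell stage.

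Leaving out 1 array at a time gave 5 to 22.5 lower with T247 at the 2-cell stage, 10 to 20.5 higher and 12 to 28 lower with MGCD0103, 0 to 2 lower with T247 at the 4-cell stage, 4 to 8 with T247 and 4.5 to 10 with MGCD0103 at the 1-cell stage, 3.5 to 7.5 between inhibitors and 0.5 to 9 for the interaction. The highest shares at the 1-cell stage, between inhibitors and for the interaction came without 2-cell control replicate 1. That array enters those comparisons only through the shared estimate of the spread. For T247 at the 1-cell stage the same share (8) came without 1-cell control replicate 1, which enters that comparison directly. At the 4-cell stage T247 had 29.5 to 42.5 higher. Single calls lost most often were Pllp between inhibitors (13 of 24 fits), Ccdc89 with T247 at the 1-cell stage (11), and A430089I19Rik and Gm4850 in the interaction (10 each). Crabp1 with T247 was lost without 2-cell control replicate 2 or 3, A430089I19Rik at the 1-cell stage without control replicate 1 or MGCD0103 replicate 3, and Gm12824 between inhibitors without MGCD0103 replicate 1.

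The labels number the replicates alike in every group, and a fit with the replicate number as a block changed no count by more than 1.5 times. It gave 95 for the rise and 80.5 for the drop under T247, 93.5 for the rise under MGCD0103, 6 between inhibitors, 2 for the interaction, 5.5 with T247 and 7.5 with MGCD0103 at the 1-cell stage, 21.5 higher and 10 lower for T247 and 14 higher and 18.5 lower for MGCD0103 in 2-cell embryos, and 38.5 higher and 1 lower in 4-cell embryos. Same-numbered arrays of the groups compared correlated between −0.08 and 0.13, and those of control stages, which share a slide, between 0.0061 and 0.15. The numbers were not taken as pairs.

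Levels of members not well above background, 84 of 200 in control 4-cell embryos, are bounds, and fitted differences among them depend on the background subtraction. Slide could not be separated from treatment. The single-slide value, the removal of outlier spots and the restriction to 173 members were added after the data had been seen.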
